A study of Rattus norvegicus with 6 samples.

Results

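The tubulins and stathmin examined here are 10 rat genes: the α-tubulins *Tuba1a*, *Tuba1b* and *Tuba1c*, the β-tubulins *Tubb2a*, *Tubb2b*, *Tubb3*, *Tubb4b*, *Tubb5* and *Tubb6*, and *Stmn1*, which encodes stathmin. Their probes were taken by the gene name in the array files; the genes were picked with earlier results of these data known, though the rule uses no measured value. All 10 were on the array, where they had 16 of the 45598 probes and 45 of the 58717 spots, among 20335 genes with a symbol. Islets of young adult male Wistar rats were kept overnight with the thymidine analogue EdU at basal glucose, dispersed, stained with the zinc dye Newport Green, fixed, permeabilised and sorted. β-cells were gated on size, granularity and Newport Green, and were divided into replicating cells, which carried EdU, and quiescent cells, which did not and had otherwise been treated alike. A sample pools the islets of 4 rats, and each of the 3 islet preparations gave 1 replicating and 1 quiescent array. EdU marks cells that made DNA at any time during the culture, so the replicating cells need not all have been in the same phase when they were fixed.

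Microtubules are hollow polymers of α-tubulin and β-tubulin dimers. They form the mitotic spindle in dividing cells, and in interphase β-cells they are the tracks along which insulin granules move. Mammals have several genes for each tubulin, with very similar proteins and different tissue distribution, and stathmin binds free dimers and favours the shortening of microtubules until it is phosphorylated in mitosis.

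The 6 arrays differed more within the quiescent group than within the replicating group. Over all probes, Pearson's r between arrays, across probes that are not independent replicates, was between 0.967 and 0.986 for the replicating arrays and between 0.654 and 0.867 for the quiescent arrays. Quiescent array 2 stood apart, so the ratio of each gene is also given without preparation 2. The share of probes well above background was between 80.8% and 98.4%, and the number of arrays limits the precision. *Ins1* and *Ins2*, the insulin genes, were well above background on all 6 arrays. All 10 proliferation markers, such as *Mki67*, passed as higher in the replicating cells, where 5.3% of all genes did. Their median log2 ratio was 3.04.

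Most of the tubulins and stathmin were higher in replicating β-cells. A probe was called when its unadjusted p in a limma fit blocked by islet preparation was at most 0.05 and its log2 ratio of replicating over quiescent was at least 1 in size, which is a fold change of 2 and the study's own selection. With each gene represented by its brightest probe, 8 of the 10 genes were higher and 0 were lower, where 5.3% of all 20335 genes were higher and 3.1% lower. *Tuba1a* and *Tubb3* did not pass. Over all their probes, 14 of 16 were higher, against 4.44% of all probes higher (2023) and 4.18% lower (1905). The study reported more genes at this selection than the probes called here, and the cause of the difference was not tested. When the processed signal was scaled to the 75th percentile instead, 662 probes of the array were higher and 3193 lower, and the same number of the 10 genes, 8, was higher. Over the array, 518 probes were higher and 63 lower without preparation 1, 1447 were higher and 813 lower without preparation 2, and 5112 were higher and 5633 lower without preparation 3, with 7, 8 and 8 of the 10 genes higher. The median log2 ratio of the 10 genes was 1.82, while that of all genes was -0.04. After Benjamini-Hochberg adjustment of the limma p-values across the array, 0 of the 45598 probes passed an adjusted p of 0.05 (0%), although 4379 of them (9.6%) had an unadjusted p under 0.05, as did 15 of the 16 tubulin and stathmin probes. The smallest adjusted p among those 16 was 0.173 and the largest 0.504. The arrays give no separate count of cells, so fewer cells with a transcript and less of it in each cell cannot be told apart.

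**Figure D1:**
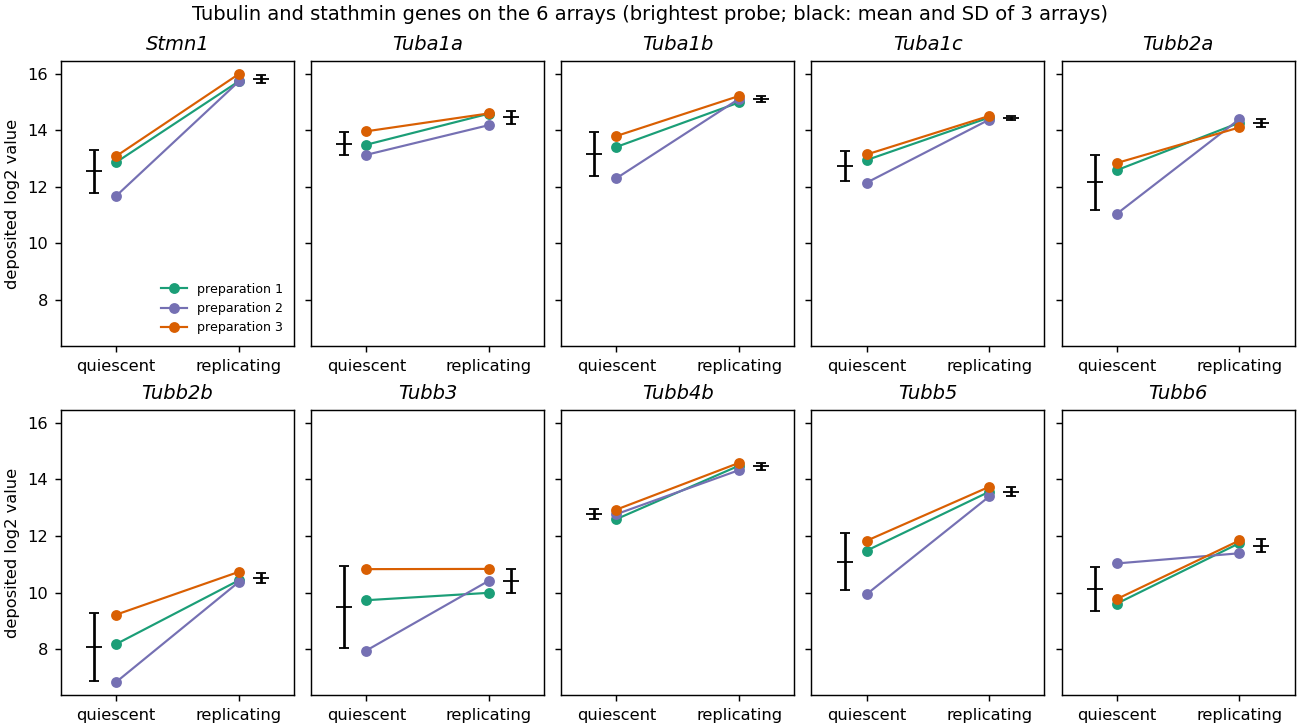
Deposited log2 value (vertical axis) of the brightest probe of each of the 10 genes on the quiescent and replicating arrays, with a line joining the 2 arrays of 1 islet preparation; black bars are the mean and SD of 3 arrays. All lines rise, though that of *Tubb3* in preparation 3 by only 0.008. The replicating points lie above all the quiescent points for 9 of the 10 genes, the exception being *Tubb3*.

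*Stmn1* had the largest log2 ratio of the 10 genes. Its brightest probe read 15.73, 15.73 and 15.99 (deposited log2 value) on the replicating arrays of preparations 1, 2 and 3, and 12.87, 11.68 and 13.09 on the quiescent arrays. Every replicating array was thus above every quiescent one, and the lowest reading was that of quiescent array 2. The log2 ratio was 3.27 ± 0.39 (SE, n = 3 preparations), a 9.65-fold difference (unadjusted p = 0.000327, adjusted p = 0.173 in limma), and it ranked 57 from the top among 20335 genes. The other *Stmn1* probe, from another place in the gene, read 10.84, 11.38 and 11.17 against 8.29, 7.58 and 7.99. It gave a log2 ratio of 3.17 ± 0.38, so the 2 ratios differed by less than their errors. Without preparation 2 the log2 ratio of the brightest probe was 2.88.

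The *Stmn1* probes lie on chromosome 5 of the rat build rn4, at chr5:153232025-153232084 (the brightest) and chr5:153231088-153231147. Of the brightest, the window around the hexamer AATAAA is shown, in capitals, because this hexamer and its variant ATTAAA are the common polyadenylation signals found near transcript ends. The other probe is shown whole, in the 5′ to 3′ order of the array file, since it measures stathmin away from that end.
Stmn1, brightest probe, window: acttgaatggttAATAAActgcacagtgct
Stmn1, other probe: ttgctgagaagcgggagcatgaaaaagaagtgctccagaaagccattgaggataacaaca
Such a hexamer was present in 4 of the 16 tubulin and stathmin probes, and in 12.6% of all probes on the strand that the array file gives. Those 4 include a pair of *Tuba1c* probes that share a run of 54 bases with the same hexamer, so they are not 4 separate sequences.

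Of the α-tubulins, *Tuba1b* and *Tuba1c*, which many tissues express, rose in the replicating β-cells. The brightest *Tuba1b* probe read 14.99, 15.11 and 15.22 on the replicating arrays and 13.41, 12.31 and 13.80 on the quiescent arrays of preparations 1, 2 and 3. The groups did not overlap, and the quiescent arrays were spread more widely (SD 0.77) than the replicating ones (SD 0.11). The log2 ratio was 1.93 ± 0.41 (SE, n = 3), or 3.82-fold (unadjusted p = 0.00476, adjusted p = 0.475 in limma), and 1.49 without preparation 2. A further *Tuba1b* probe gave 2.33 ± 0.51. That probe also lists a *Tuba1a* transcript among its accessions, so its signal may hold both genes.

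*Tuba1c* had 3 probes. The brightest, with 10 spots on each array, read 14.45, 14.38 and 14.51 on the replicating arrays and 12.95, 12.15 and 13.14 on the quiescent arrays. All replicating arrays were higher, and their readings lay within a narrow band. Its log2 ratio was 1.70 ± 0.34 (3.25-fold, unadjusted p = 0.00401, adjusted p = 0.475 in limma), and 1.43 without preparation 2. The other probes gave 1.84 ± 0.36 and 2.24 ± 0.48. The first of these others shares a run of 54 of its 60 bases with the brightest probe, although the array file places it elsewhere on chromosome 7, so the 2 are not independent measurements.

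*Tuba1a*, the α-tubulin best known from developing neurons, had a smaller ratio. Its single probe read 14.59, 14.18 and 14.60 on the replicating arrays and 13.49, 13.13 and 13.96 on the quiescent arrays. The groups did not overlap and the ratio was above 0 in every preparation, at 1.10, 1.05 and 0.63. The log2 ratio of 0.93 ± 0.32 (95% interval 0.12 to 1.73, unadjusted p = 0.0310, adjusted p = 0.475 in limma) missed the fold change that a call required. Without preparation 3 it was 1.07 and passed, and without preparation 2 it was 0.87.

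In rn4 the brightest probes of the 3 α-tubulins lie close together on chromosome 7, at chr7:137706854-137706913 for *Tuba1b*, chr7:137729455-137729514 for *Tuba1a* and chr7:137817389-137817448 for *Tuba1c*. A window of the brightest *Tuba1c* probe with its hexamer in capitals is printed here. The least bright *Tuba1c* probe (chr7:137817177-137817235) is shown whole, as a probe without a hexamer with which the gene was also higher.
Tuba1c, brightest probe, window: tcctatactgtcAATAAAggtgtttccgtt
Tuba1c, remaining probe: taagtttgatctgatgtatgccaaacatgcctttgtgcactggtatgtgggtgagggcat

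Of the β-tubulins, *Tubb5*, a widely expressed gene, had the largest ratio. Its brightest probe read 13.56, 13.40 and 13.74 on the replicating arrays and 11.48, 9.94 and 11.83 on the quiescent arrays. The groups did not overlap, and quiescent array 2 was the lowest. The log2 ratio was 2.48 ± 0.43 (SE, n = 3), or 5.59-fold (unadjusted p = 0.00196, adjusted p = 0.344 in limma), and 2.00 without preparation 2. The other *Tubb5* probe read 12.42, 12.89 and 13.28 against 10.41, 11.47 and 10.94, with a log2 ratio of 1.92 ± 0.35. The 2 probes disagreed on quiescent array 2, which was the lowest quiescent array with the one and the highest with the other. Their ratios in preparation 2 were accordingly 3.46 and 1.42.

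*Tubb2a* and *Tubb2b*, neighbouring genes with near-identical products, both rose. The brightest *Tubb2a* probe read 14.27, 14.40 and 14.10 on the replicating arrays and 12.59, 11.05 and 12.84 on the quiescent arrays, a log2 ratio of 2.10 ± 0.50 (4.27-fold, unadjusted p = 0.00796, adjusted p = 0.475 in limma). The *Tubb2b* probe read 10.43, 10.37 and 10.73 against 8.18, 6.84 and 9.22, a log2 ratio of 2.43 ± 0.48 (5.41-fold, unadjusted p = 0.00342, adjusted p = 0.464 in limma). In both genes every replicating array exceeded every quiescent array, and preparation 2 gave the largest ratio. Without it the log2 ratio was 1.47 for *Tubb2a* and 1.88 for *Tubb2b*, and both were still called higher. The other *Tubb2a* probe, which lists a *Tubb2b* transcript as well, gave 1.61 ± 0.37 and cannot be assigned to 1 of the 2 genes.

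*Tubb4b*, a β-tubulin of most tissues and of cilia, had the least spread between quiescent arrays. It read 14.49, 14.33 and 14.59 on the replicating arrays and 12.60, 12.77 and 12.93 on the quiescent arrays, whose SD of 0.17 was the smallest of the 10 genes. Here quiescent array 2 lay between the other two. The log2 ratio was 1.70 ± 0.31 (3.25-fold, unadjusted p = 0.00242, adjusted p = 0.387 in limma), and it stayed between 1.55 and 1.83 under all 13 other settings, at 1.77 without preparation 2.

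*Tubb6*, a β-tubulin of many non-neuronal cells, rose less evenly. It read 11.75, 11.39 and 11.84 on the replicating arrays and 9.61, 11.03 and 9.77 on the quiescent arrays. Quiescent array 2 was the highest of its group, close to replicating array 2, though the groups did not overlap. The only *Tubb6* probe shares a run of at least 20 bases, in either orientation, with 1 probe of another array entry. Whether it measures *Tubb6* alone was not tested. The log2 ratio was 1.52 ± 0.47 (2.87-fold, unadjusted p = 0.0223, adjusted p = 0.475 in limma), made up of 2.14, 0.36 and 2.07 in the 3 preparations. The call was lost without preparation 1 (1.22, unadjusted p = 0.146) and without preparation 3 (1.25, unadjusted p = 0.0920), and without preparation 2 the ratio was 2.11.

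*Tubb3*, the β-tubulin used as a marker of neurons, did not pass. It read 9.99, 10.42 and 10.84 on the replicating arrays and 9.73, 7.95 and 10.83 on the quiescent arrays. The groups overlapped, and quiescent array 2 stood well below all others. The log2 ratio was 0.91 ± 0.57 (95% interval -0.55 to 2.37, unadjusted p = 0.170, adjusted p = 0.504 in limma), and without preparation 2 it was 0.13. Of 11 neuron and Schwann cell markers 0 were called in either direction, where 5.3% of all genes were called higher and 3.1% lower. Their median log2 ratio was 0.02.

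The *Tubb5* and *Tubb2a* probes printed here are the less bright ones, at chr20:3063856-3063915 and chr17:37142111-37142170 in rn4. The first is the *Tubb5* probe that disagreed with its partner on quiescent array 2, and the second is the probe that lists transcripts of both *Tubb2* genes. For *Tubb4b* (chr3:3387048-3387107) the window with the ATTAAA hexamer in capitals is shown.
Tubb5, other probe: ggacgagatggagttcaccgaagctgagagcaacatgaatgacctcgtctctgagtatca
Tubb2a, other probe: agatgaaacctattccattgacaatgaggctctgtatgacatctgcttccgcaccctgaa
Tubb4b, window: acagataccaccATTAAAgcaattcatagt

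**Figure D2:**
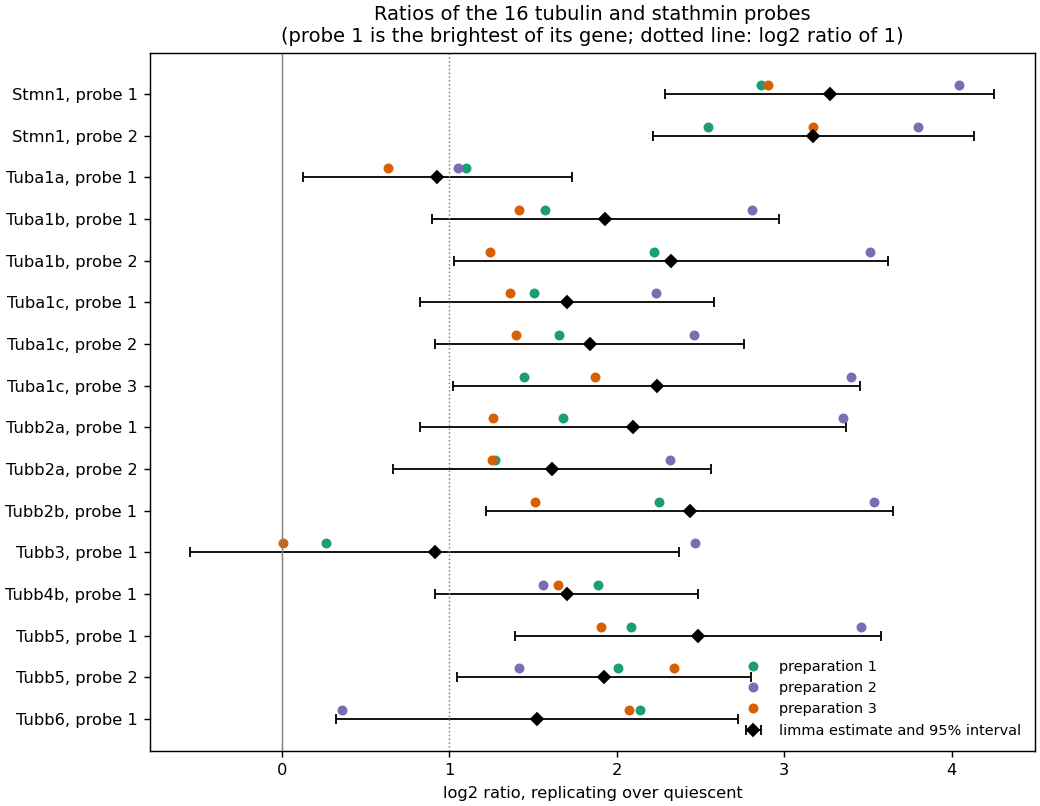
Log2 ratio of replicating over quiescent (horizontal axis) for each of the 16 probes, with coloured points for the 3 islet preparations and a diamond with the 95% interval for the limma estimate. All preparation values lie above 0, 14 of the 16 estimates lie above the dotted line at 1, and the interval of *Tubb3* alone includes 0.

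Across the set, the preparations differed in the size of the ratios, and no ratio fell below 0. In each preparation, all 16 probes read higher in the replicating cells. For *Tubb3* in preparation 3 the log2 ratio was only 0.008, which is close to no difference. The 9 tubulins had a median log2 ratio of 1.68, 2.47 and 1.42 in preparations 1, 2 and 3, whereas the medians over all probes were -0.02, -0.05 and -0.05. Preparation 2 gave the largest ratio for 7 of the 10 genes, and preparation 3 gave the lowest for 7. Quiescent array 2 was the lowest quiescent array for 8 of the 10, the exceptions being *Tubb4b* and *Tubb6*. Without preparation 2, 8 genes were still called higher. All replicating arrays were above all quiescent arrays for 9 of the 10 genes and 15 of the 16 probes, which was so for 10.1% of all genes and 9.01% of all probes with a value on every array. The SD was larger over the quiescent than over the replicating arrays for 10 of the 10 genes, as it was for 86.8% of all genes. For the 3 probes printed at 10 spots, the SD between spots of 1 array was at most 0.17, while that between the quiescent arrays was between 0.53 and 1.19. The SD between the replicating arrays was 0.03 and 0.07 for the 2 *Tuba1c* probes, below the lowest SD between their spots, and 0.19 for the *Tubb2b* probe.

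**Figure D3:**
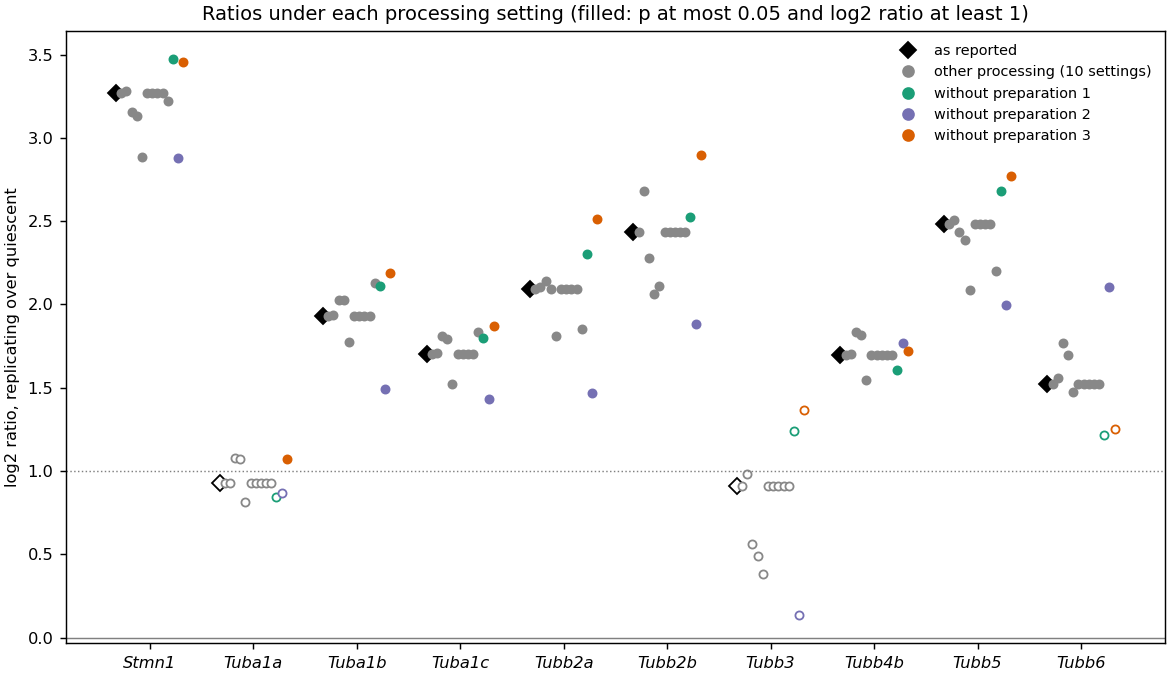
Log2 ratio of each gene (vertical axis) as reported (black diamond), under 10 other ways of processing the arrays (grey) and with each preparation left out (coloured); filled marks met the call. All values lie above 0, 7 genes keep filled marks throughout, *Tubb6* loses the call in 2 settings, *Tuba1a* meets it in 1, and *Tubb3* falls to 0.13 without preparation 2.

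Markers of other cells moved between the same groups. Of 12 fibroblast and stellate cell markers 5 were called higher in the replicating cells and 0 lower, where 5.3% and 3.1% of all genes were. Their median log2 ratio was 1.26. Those called were *Col1a2*, *Col3a1* and *Col6a3*, collagen chains, *Mgp*, a matrix protein, and *Vim*, the intermediate filament vimentin, which dividing cells of other types can also express. The log2 of their summed level over the list was 13.86 to 15.38 on the replicating and 12.59 to 12.75 on the quiescent arrays, and none of the 12 was below background throughout a group. Their median ratio was 1.59, 0.74 and 1.32 in preparations 1, 2 and 3.

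The hormone genes of other islet cells were higher as well. Among 9 α-cell markers 2 were called higher, *Gcg* (glucagon, log2 ratio 2.39) and *Gc* (1.86), with summed levels of 15.47 to 16.72 against 13.17 to 15.31. In addition, 2 of 4 δ-cell markers (*Sst* and *Rbp4*), the PP-cell marker *Ppy*, 2 of 8 immune markers and 1 of 9 acinar markers were called higher, and 0 of 6 duct and 0 of 8 endothelial markers. Of all genes, 5.3% were called higher and 3.1% lower. In preparations 1, 2 and 3 the median ratio was 0.41, 0.82 and 0.59 for the α-cell markers. It was 0.74, 0.89 and 0.63 for the δ-cell markers and 1.11, 0.33 and 1.09 for the immune markers. Of 9 β-cell markers 0 were called higher and 1 lower, *Mafa* (-1.01). Their median log2 ratio was -0.56, with 3 of the 9 above 0, among them *Ins1* (0.25) and *Ins2* (0.42), whose groups overlapped. By qPCR, the study reported significantly lower insulin expression in the replicating cells, and the cause of this difference from the arrays was not tested. All replicating arrays were below all quiescent arrays for 3 of the 9 β-cell markers, and the share of all genes in this direction was not counted. The part of these other cells in the tubulin and stathmin ratios was not tested.

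None of the other tubulin genes passed the call. Of the 10 on the array, 0 were called higher and 0 lower, near the shares of 5.3% and 3.1% of all genes. Their median log2 ratio was 0.12. Without preparation 2 there were 2 higher, and without preparation 3 there was 1 higher and 1 lower. *Tubg1*, the γ-tubulin that nucleates microtubules at centrosomes, had a log2 ratio of 1.05 ± 0.43 (unadjusted p = 0.0587, adjusted p = 0.475 in limma) with overlapping groups. *Tuba4a*, another α-tubulin, read 13.61, 13.52 and 14.05 on the replicating arrays and 13.40, 12.85 and 13.21 on the quiescent arrays, a log2 ratio of 0.57 ± 0.32. The other members include tissue-restricted isotypes: *Tubb4a*, a β-tubulin of brain, had a ratio of -0.66 and *Tuba8* one of -0.80, and neither passed. For both of these every replicating array was below every quiescent array, and for *Tuba4a* every replicating array was above. These genes were chosen by name, and whether they differ from the 10 was not tested as a group.

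New α-tubulin and β-tubulin chains are folded by prefoldin, the chaperonin CCT and the tubulin cofactors before they form dimers. Of 22 such genes 1 was called higher and 0 lower, a share near the 5.3% of all genes called higher, with a median log2 ratio of 0.40. The count was 0 without preparation 1 and 3 without preparation 3. The gene called was *Cct4*, a chaperonin subunit, which read 8.90, 8.57 and 8.31 on the replicating and 6.80, 6.19 and 7.83 on the quiescent arrays (log2 ratio 1.65 ± 0.48, unadjusted p = 0.0169, adjusted p = 0.475 in limma). The other 21 included *Tbca*, a cofactor that binds β-tubulin, at 1.55 ± 0.80, the mean of 0.67, 3.91 and 0.08 in preparations 1, 2 and 3.

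Of 19 genes whose products modify tubulin, such as tyrosine and glutamate ligases, 1 was called higher and 0 lower, again a share near the 5.3% of all genes, with a median of -0.04. The higher count was 0 without preparation 1, and without preparation 3 there were 5 higher and 2 lower. The gene called was *Ttll9*, a member of the tubulin tyrosine ligase-like family, which read 9.30, 9.05 and 8.53 against 7.74, 7.67 and 7.39 (log2 ratio 1.36 ± 0.31, unadjusted p = 0.00674, adjusted p = 0.475 in limma). Its ratio was above 1 in every preparation.

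Of 31 other stathmins and microtubule-associated proteins, 4 were called higher and 0 lower, where 5.3% and 3.1% of all genes were, with a median of 0.25. There was 1 higher without preparation 1, there were 3 higher and 1 lower without preparation 2, and 9 higher and 1 lower without preparation 3. *Map7d1*, of the family that recruits kinesin to microtubules, had a log2 ratio of 1.91 ± 0.46, and *Map2*, best known from dendrites, 1.59 ± 0.60. *Kif2a*, a kinesin that shortens microtubule ends, had 1.53 ± 0.49. The adjusted p of each of these was 0.475 in limma. The other stathmins, which are mostly neuronal, were not among them: *Stmn2* had a ratio of -0.14, *Stmn3* of -0.06 and *Stmn4* of -1.20.

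**Figure D4:**
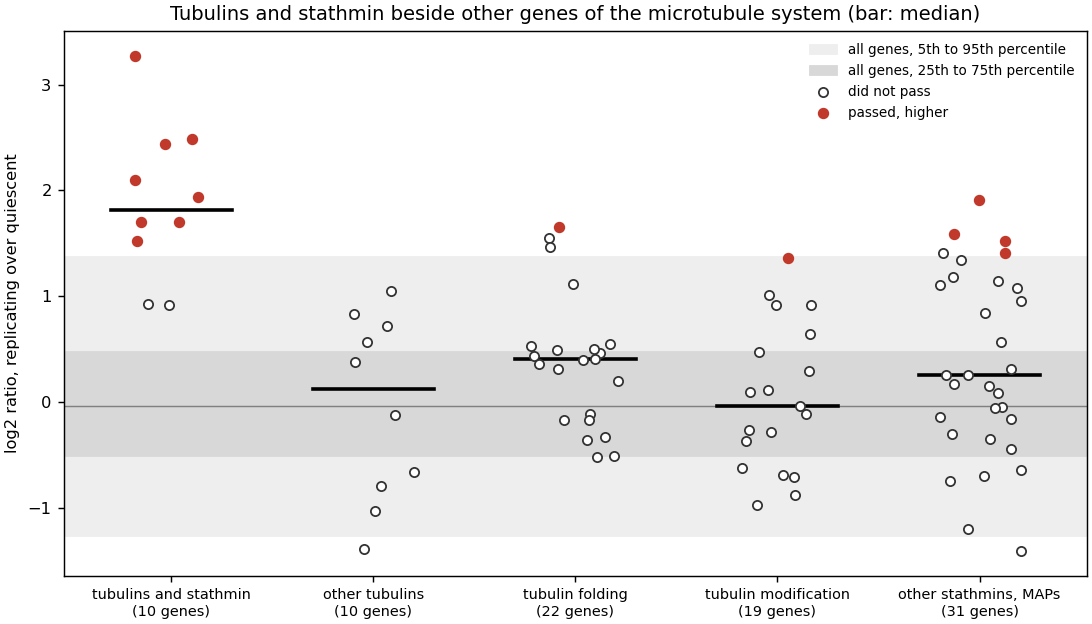
Log2 ratio of replicating over quiescent (vertical axis) of the brightest probe of each gene in 5 groups, filled where it was called higher; bars are medians and the grey bands hold the central range of all genes. The 10 tubulins and stathmin have 8 filled points and a median of 1.82, and the medians of the 4 other groups lie between -0.04 and 0.40.

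The pattern over the 6 arrays was compared with that of 16296 genes, by the root mean square distance between mean-centred log2 profiles, as a description. Only genes well above background on all 3 replicating arrays were compared, a filter set on the group where the 10 genes are higher. The genes nearest to *Stmn1* were *Hist1h2ail1*, *H4c14*, *Espl1*, *Cdc45* and *Anln*, at distances of 0.11 to 0.26. These encode histones, separase, a replication factor and anillin. Among the 5 nearest to *Tuba1b* were *Tnfrsf1b*, *Map7d1*, *E2f2* and *Tuba1c*, and nearest to *Tubb5* were *Fen1*, a nuclease of DNA replication, *Thbs1*, *E2f2*, *Ube2s*, a mitotic ubiquitin-conjugating enzyme, and *Tubb2b*. A tubulin of the same set was thus among the 5 nearest for both tubulins.

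Since most of the genes moved together, the 250 bases before their annotated start were read from RefSeq promoters of the assembly GRCr8, in which all 10 had an entry. The motifs were chosen after these sequences had been seen: CCAAT, the box bound by NF-Y; TTTGAA or TTCGAA, the core of the cell cycle element CHR; TTGGCGC or TTCGCGC, forms of the E2F site; and GGGCGG, the GC box. Both strands were searched. CCAAT was present in 9 of the 10 promoters (all but *Tubb2a*), in 4 of the 10 other tubulin promoters with an entry and in 34.0% of 33469 promoters. Those other 10 include *Tubb1*, which has no named probe, and lack *Tube1*, which was measured. GGGCGG was present in 9 of the 10 (all but *Tubb2b*), in 2 of the other 10 and in 30.5% of all. TTTGAA or TTCGAA was found in 2, *Tuba1c* and *Tubb4b*, in 1 of the other 10 (*Tuba3b*) and in 17.4% of all promoters. TTGGCGC or TTCGCGC was found in 2, *Stmn1* and *Tubb5*, in 1 of the other 10 (*Tubb4a*) and in 2.9% of all. Further forms of the E2F site were not counted, such as TTCCCGC, which stands in the promoters of the other tubulins *Tuba3a* and *Tuba3b*. The E2F counts therefore depend on the forms picked. No 2 matches overlapped in the printed promoters. The promoters of *Tuba1a* and *Tubb3*, which did not pass, held CCAAT and GGGCGG too. A match describes the letters and shows no binding.

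The 4 promoters with a CHR core or an E2F form are printed on the strand of the gene, ending at the base before the start, with matches to CCAAT, to the CHR core and to the E2F forms in capitals, in either orientation. In GRCr8 they are at chr5:151964929-151965178 (plus strand) for *Stmn1*, chr7:132070734-132070983 (plus) for *Tuba1c*, chr3:28438456-28438705 (minus) for *Tubb4b* and chr20:2917327-2917576 (plus) for *Tubb5*.
Stmn1, promoter: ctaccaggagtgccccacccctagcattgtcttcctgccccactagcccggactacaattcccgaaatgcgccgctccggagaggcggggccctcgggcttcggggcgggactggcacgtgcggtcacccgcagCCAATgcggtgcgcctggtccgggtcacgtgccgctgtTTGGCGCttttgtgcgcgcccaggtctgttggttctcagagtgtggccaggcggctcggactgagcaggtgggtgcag
Tuba1c, promoter: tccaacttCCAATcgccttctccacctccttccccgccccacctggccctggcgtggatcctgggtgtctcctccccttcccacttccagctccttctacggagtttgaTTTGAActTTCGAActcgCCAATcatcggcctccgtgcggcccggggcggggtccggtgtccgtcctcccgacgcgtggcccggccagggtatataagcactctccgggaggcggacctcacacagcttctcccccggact
Tubb4b, promoter: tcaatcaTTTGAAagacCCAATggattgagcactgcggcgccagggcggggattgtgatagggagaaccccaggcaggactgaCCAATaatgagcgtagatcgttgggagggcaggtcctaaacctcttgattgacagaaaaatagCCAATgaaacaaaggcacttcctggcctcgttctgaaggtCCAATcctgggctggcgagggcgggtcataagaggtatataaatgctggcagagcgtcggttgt
Tubb5, promoter: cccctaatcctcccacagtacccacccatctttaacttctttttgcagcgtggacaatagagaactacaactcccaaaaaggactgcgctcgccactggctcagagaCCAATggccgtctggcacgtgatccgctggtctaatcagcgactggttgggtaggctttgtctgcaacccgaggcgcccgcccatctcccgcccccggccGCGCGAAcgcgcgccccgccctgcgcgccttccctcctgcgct
*Tubb4b* had 4 CCAAT boxes, at 233, 167, 104 and 64 bases before the start. *Stmn1* had 1, at 116 bases, with an E2F form at 78 bases.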

How the data were processed

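Gene expression was measured on 6 Agilent arrays of 1 colour, on 1 slide with 1 scan. The authors amplified the RNA, read each spot's intensity with Feature Extraction 10.7.3.1, and deposited these intensity values without normalization between arrays; the files place probes on rn4. The authors also deposited log2 values after normexp correction and quantile normalization, which are the values used here. Values recomputed from the deposited intensity (normexp, offset 50) differed from them by at most 0.000245. Control spots were left out, spots flagged as outliers were set to missing, and spots of a probe were averaged. A gene was represented by its brightest probe, meaning the probe whose log2 values averaged highest across the 6 arrays. All 16 tubulin and stathmin probes were well above background on all 6 arrays, with 0 of 270 spot readings flagged and 0 saturated.

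Probes were tested with limma 3.58.1 in R 4.3.3 in a model blocked by islet preparation, which follows the paired test of the study. Files were read with the data.table package, version 1.17.8. The pairing comes from the labels and methods. Across probes, the 2 arrays of a preparation deviated from their groups' means with correlations of 0.0561, 0.242 and 0.258. The Benjamini-Hochberg adjustment ran over all 45598 probes. The SEs, intervals and p-values are moderated by limma. They draw on the spread between preparations of pooled rats and on a variance shared across probes. An SE is therefore not the spread between preparations alone. For *Tubb4b*, log2 ratios of 1.89, 1.56 and 1.65 in the 3 preparations came with an SE of 0.31.

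The 10 genes and all gene lists were chosen with earlier results of these data known. Named genes are the 10, the list genes that passed the call, the 5 genes nearest in pattern to *Stmn1*, *Tuba1b* and *Tubb5*, and marker genes beside the results they touch; *Tubg1*, *Tuba4a*, *Tubb4a*, *Tuba8*, *Tbca* and the other stathmins were named after their values were seen. Not every gene that meets these rules is reported here. *Tubb1* has no named probe. Promoters are from RefSeq (GRCr8), which was used for sequence only. Alternatives were other background corrections and scalings, a filter on dim probes, outlier spots kept, a variance trend, no block, a gene's median probe, and each preparation left out. The qPCR and culture experiments were not analysed here.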

Additional observations from a re-analysis of the deposited data

How the results depend on the processing

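Between 7 and 8 of the 10 genes were called higher, and 0 lower, under all 13 alternatives, and no log2 ratio changed sign. *Tubb6* lost the call without preparation 1 and without preparation 3, and *Tuba1a* gained it without preparation 3. Scaling to the 75th percentile moved the median log2 ratio of all probes from -0.07 to -0.71 (processed signal) and -0.39 (normexp), and the share of called probes that were higher from 51.5% to 17.2% and 21.4%. With the processed signal 662 probes were called higher and 3193 lower, 0 tubulin modification genes and 1 other stathmin or microtubule-associated gene were higher. With normexp so scaled, 5862 probes were lower, 1 other tubulin was higher and 2 lower, 3 folding genes were higher, 0 modification genes were higher and 1 lower, and 2 other stathmins or microtubule-associated genes were lower. Cyclic loess gave 2 folding genes higher and 2 other stathmins or microtubule-associated genes lower. With no replicate block, which ignores the pairing, 878 probes were lower and 8 of the 10 genes higher, so no call among the 10 changed. Leaving out each preparation in turn gave 518 to 5112 probes higher and 63 to 5633 lower, 0 to 2 other tubulins higher and 0 to 1 lower, 0 to 3 folding genes higher, 0 to 5 modification genes higher and 0 to 2 lower, and 1 to 9 other stathmins or microtubule-associated genes higher and 0 to 1 lower. At an adjusted p under 0.05 in limma, 4 of the 10 genes passed with normexp scaled to the 75th percentile, 1 with cyclic loess and 1 with a variance trend. The cause of these differences was not tested. All arrays shared 1 slide and 1 scan, so no slide block was fitted, and taking a gene's median over its probes gives no count of all probes.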
